A study of Homo sapiens with 9 samples.

Results

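The oligoadenylate synthetase (OAS) family, OAS1, OAS2, OAS3 and OASL, was examined by RNA-Seq in HT-29 human colon cancer cells exposed to 5-aza-deoxycytidine (5-Aza). The 4 genes were picked by symbol and are 4 of the 23284 gene symbols measured, each on a single entry per sample. The 9 samples fell into 3 groups of 3 biological replicate cultures, given DMSO vehicle alone (0 µM 5-Aza, the control) or 5-Aza at 5 µM or at 10 µM, all for 5 days. HT-29 is an established line from a colon tumour, so every culture shares 1 genetic background, and the p-values below describe the spread between cultures of that line. 5-Aza is a cytidine analogue that is built into DNA and traps DNA methyltransferases, so that methylation is lost as cells divide. Values are FPKM, in which sequenced fragments are divided by transcript length and by the size of the library, and they are read here as relative levels because the term for library size is not stated.

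OAS1, OAS2 and OAS3 are enzymes that bind double-stranded RNA and then join ATP into 2′-5′-linked oligoadenylates. These short chains act as messengers in the antiviral response inside the cell. OASL is related in sequence and also binds double-stranded RNA, but it makes no oligoadenylates and carries ubiquitin-like domains instead. All of these synthetase genes are classical targets of interferon signalling, in which the factor ISGF3, which contains STAT2 and IRF9, binds response elements in their promoters.

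OAS1, OAS3 and OAS2 lie side by side on chromosome 12, and OASL lies on the same chromosome far from them. In the GRCh37 (hg19) annotation OAS1 spans 113343661 to 113371024 (plus strand, 6 exons in its canonical transcript), OAS3 spans 113375856 to 113414265 (plus strand, 16 exons) and OAS2 spans 113416200 to 113449528 (plus strand, 10 exons). The gap between OAS1 and OAS3 is 4831 bases and that between OAS3 and OAS2 is 1934 bases. OASL spans 121455566 to 121477049 on the minus strand and has 6 exons in its canonical transcript. The gap between OAS2 and OASL is 8006037 bases. An antisense noncoding gene shares 92 exon bases with OAS1, and the library kit is not described as keeping strand, so reads from those bases cannot be assigned to either gene.

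Because the genes rose together at 5 µM, the 250 bases before the start sites of OAS1 and OAS3, the members with a window in the RefSeq promoter table (GRCh38.p14 coordinates), are printed 5′ to 3′. Capitals mark matches, on either strand, to GAAANNGAAA, the core of the interferon-stimulated response element, or to its shorter-spaced form GAAANGAAA.
OAS1, chr12:112906712-112906961 (+): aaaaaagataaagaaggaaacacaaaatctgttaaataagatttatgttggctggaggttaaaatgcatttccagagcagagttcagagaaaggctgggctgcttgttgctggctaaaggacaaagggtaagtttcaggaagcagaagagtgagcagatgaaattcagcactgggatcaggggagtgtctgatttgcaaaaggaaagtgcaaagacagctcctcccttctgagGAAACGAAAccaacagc
OAS3, chr12:112938224-112938473 (+): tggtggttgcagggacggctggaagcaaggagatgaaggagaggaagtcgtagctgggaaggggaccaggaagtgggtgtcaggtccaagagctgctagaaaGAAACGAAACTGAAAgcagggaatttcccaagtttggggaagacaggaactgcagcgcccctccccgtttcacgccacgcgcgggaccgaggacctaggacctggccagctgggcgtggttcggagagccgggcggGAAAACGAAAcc
The OAS1 window holds 1 match, GAAACGAAA, from 17 to 9 bases before the start. The OAS3 window holds 3 matches, of which GAAACGAAA (148 to 140 bases before the start) and GAAACTGAAA (143 to 134 bases before) overlap, while GAAAACGAAA ends 3 bases before the start. Among all 35116 windows in the table, 2.69% hold GAAANGAAA, 3.02% hold GAAANNGAAA and 5.48% hold either form. The windows differ in CG dinucleotides, the sites of DNA methylation: OAS1 has 1 and OAS3 has 15, against a median of 11, so that 6.06% of windows hold fewer than OAS1 and 57.1% hold fewer than OAS3. A match describes letters only, and methylation was not analysed here.

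All 4 genes were above 0 in all 9 cultures, and OAS1 was the most abundant member throughout. On the FPKM scale, which corrects for length, OAS1 stood between percentiles 92.7 and 98.8 of the symbols above 0 in the same library, OAS3 between 79.9 and 97.7, OAS2 between 61.2 and 94.7, and OASL between 60.5 and 88.0. OAS1 exceeded OAS3, and OAS3 exceeded both OAS2 and OASL, in each of the 9 cultures. OAS2 and OASL could not be ordered in the control, where OAS2 was the higher in 2 of 3 cultures, but OAS2 was the higher in 3 of 3 cultures at 5 µM and at 10 µM. The depth behind these levels, estimated from the steps of the lowest FPKM values, ran from about 521 fragments for OASL in 10 µM replicate 1 to about 24100 for OAS3 in 5 µM replicate 3. These numbers are rough, since 15 of the 30 genes used to check the length relation came within 15% of it.

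OAS1, the main synthetase here, measured 1031230, 965040 and 680643 FPKM in control replicates 1 to 3. It measured 2044900, 2345640 and 2049360 FPKM at 5 µM, and 726335, 1415900 and 874025 FPKM at 10 µM. All 5 µM cultures were above all others, while the 10 µM cultures overlapped the control because only replicate 2 was higher.

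OAS3, the longest of the synthetases, measured 510679, 463447 and 276369 FPKM in the control. It measured 1188630, 1239060 and 1417670 FPKM at 5 µM, and 463442, 817469 and 350158 FPKM at 10 µM. Again the 5 µM cultures were the highest, and 10 µM replicates 1 and 3 lay within the control range.

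OAS2, the third member of the cluster, measured 241065, 213574 and 118464 FPKM in the control. It measured 628900, 793639 and 655458 FPKM at 5 µM, and 253191, 539242 and 238881 FPKM at 10 µM. Of the 10 µM cultures, replicates 1 and 2 were above the control range and replicate 3 was just within it.

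OASL, the member without synthetase activity, measured 245119, 187463 and 115127 FPKM in the control. It measured 330908, 394701 and 349110 FPKM at 5 µM, and 124130, 331499 and 193490 FPKM at 10 µM. The 5 µM cultures were above the control, but 10 µM replicate 2 exceeded the lowest 5 µM culture by a small margin.

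**Figure D1:**
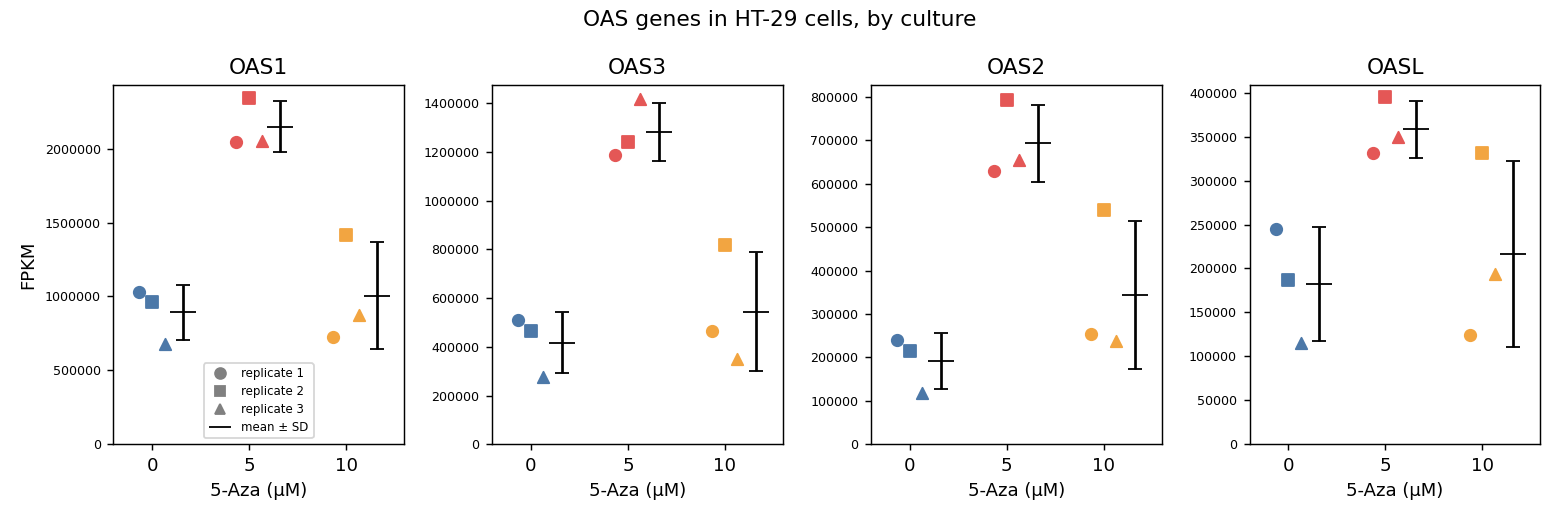
FPKM (vertical axes from 0, each panel with its own range) of OAS1, OAS3, OAS2 and OASL against the 5-Aza concentration, 1 point per culture with mean ± SD (n = 3) beside each group. The 5 µM cultures sit above the control in each panel and above all 10 µM cultures for OAS1, OAS3 and OAS2 but not OASL, and the 10 µM group is spread out by replicate 2.

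The first comparison asks what 5 µM 5-Aza does relative to vehicle. All 4 members rose. OAS2 rose most, from 191034 ± 64333 to 692666 ± 88448 FPKM (SD, n = 3), which is 3.77-fold. OAS3 rose from 416832 ± 123915 to 1281790 ± 120350 FPKM (3.17-fold), OAS1 from 892304 ± 186268 to 2146630 ± 172359 FPKM (2.44-fold), and OASL from 182570 ± 65134 to 358240 ± 32862 FPKM (2.05-fold). Summed over the family, the level went from 1682740 ± 437615 to 4479330 ± 289928 FPKM.

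Each rise was called with limma on log2(FPKM + 1), where a called gene reaches an adjusted p of 0.05 or less (Benjamini-Hochberg, over all 20051 genes tested) and differs by more than 1 on the log2 scale in either direction. The log2 differences were 1.92 for OAS2 (SE 0.27, limma adjusted p = 0.00248), 1.67 for OAS3 (SE 0.23, limma adjusted p = 0.00242), 1.29 for OAS1 (SE 0.17, limma adjusted p = 0.00184) and 1.04 for OASL (SE 0.27, limma adjusted p = 0.0243). By the same rule 14.1% of all tested genes were called higher and 2.17% lower, and the median log2 difference of all tested genes was 0.14. The groups did not overlap for any member, a pattern that 29.4% of all tested genes showed in the same direction. The exact 2-sided permutation test gave p = 0.1 for each member, the smallest value that 3 against 3 cultures allow.

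The OASL call is the least firm of the set. Its 95% interval of the log2 difference ran from 0.39 to 1.68, and it was retained on leaving out control replicate 1 (1.28, limma adjusted p = 0.00778). It was lost on leaving out control replicate 2 (1.09, limma adjusted p = 0.0503), control replicate 3 (0.74, limma adjusted p = 0.0126), 5 µM replicate 1 (1.09, limma adjusted p = 0.0719), 5 µM replicate 2 (0.96, limma adjusted p = 0.089) or 5 µM replicate 3 (1.05, limma adjusted p = 0.0818). OAS1, OAS2 and OAS3 were called in each of these 6 fits. When limma tested against a 2-fold change itself, rather than applying that limit afterwards, 0 of 4 members were called, with limma adjusted p = 0.082 for OAS2, 0.145 for OAS3, 0.448 for OAS1 and 1 for OASL.

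The second comparison asks what raising the concentration from 5 µM to 10 µM does. No member was called, although all 4 means were lower at 10 µM. An unadjusted limma p under 0.05 was reached by 4 of 4 members. The share of all tested genes that reached it is not given, here or for the other comparisons, so such counts have no background. OAS3 averaged 543690 ± 243772 FPKM at 10 µM, a log2 difference of -1.33 (95% interval -2.04 to -0.61, limma adjusted p = 0.0506). OAS1 averaged 1005420 ± 363075 FPKM, a log2 difference of -1.15 (95% interval -1.77 to -0.53, limma adjusted p = 0.0515).

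OAS2 averaged 343771 ± 169434 FPKM at 10 µM, a log2 difference of -1.11 from 5 µM (95% interval -1.85 to -0.37, limma adjusted p = 0.0921). OASL averaged 216373 ± 105561 FPKM, a log2 difference of -0.84 (95% interval -1.62 to -0.06, limma adjusted p = 0.178). The 10 µM cultures lay wholly below the 5 µM cultures for OAS1, OAS2 and OAS3, as for 25.3% of all tested genes, and overlapped them for OASL. Of all 20085 genes tested, 4.82% were called lower and 0.129% higher, and their median log2 difference was -0.31, so that the members lay between 0.53 and 1.01 below that median.

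These calls depended on 10 µM replicate 2, the culture with the highest level of every member in its group. Without it, 4 of 4 members were called lower, with log2 differences of -1.67 for OAS3, -1.49 for OAS2, -1.43 for OAS1 and -1.20 for OASL and limma adjusted p from 0.00416 to 0.0148. The calls over all genes also grew in that fit, from 969 to 1873 lower and from 26 to 64 higher. The choice of fit also decided OAS1 and OAS3, which stood just above the threshold. Both were called lower with all 9 samples in one fit (limma adjusted p = 0.0291 for OAS1 and 0.0393 for OAS3).

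The third comparison sets 10 µM against vehicle. No member was called, and 0 of 4 had an unadjusted limma p under 0.05. The log2 differences were 0.81 for OAS2 (95% interval -0.08 to 1.69, limma adjusted p = 0.171), 0.34 for OAS3 (-0.48 to 1.16, limma adjusted p = 0.518), 0.20 for OASL (-0.73 to 1.13, limma adjusted p = 0.735) and 0.14 for OAS1 (-0.53 to 0.80, limma adjusted p = 0.742). The intervals include no change and, for OAS2, OAS3 and OASL, a rise of more than 1. The groups overlapped for every member, whereas 14.4% of all 18928 tested genes lay wholly higher at 10 µM. By the call rule 4.07% of tested genes were higher and 3.4% lower, with a median log2 difference of -0.15.

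**Figure D2:**
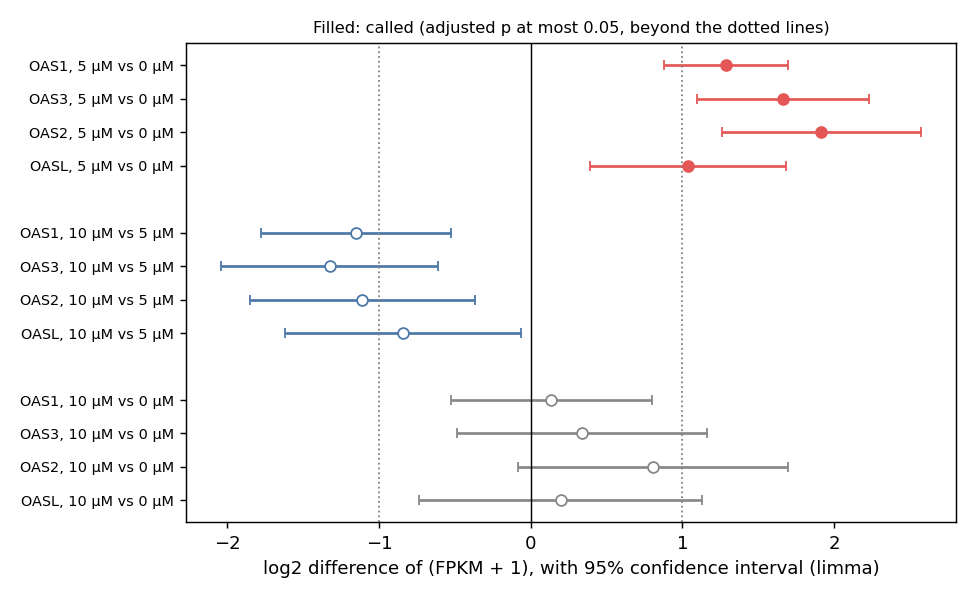
Log2 difference of (FPKM + 1) for each OAS gene in the 3 comparisons (points, limma) with 95% confidence intervals (bars). Filled points are called. All 4 differences are filled for 5 µM against 0 µM, from 1.04 to 1.92, and none is filled in the other comparisons.

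Single cultures deviated from their group in all members at once. In control replicate 3 all 4 members were below their group mean, by 0.37 (OAS1) to 0.63 (OAS2) on the log2 scale, and 40 of 40 other interferon-stimulated genes were below it too. In 10 µM replicate 2 all 4 members were above their group mean, by 0.55 (OAS1) to 0.76 (OAS2), as were 40 of 40 interferon-stimulated genes, whose median deviation was 0.54. The median deviation of all 15278 genes above 0 in every sample was 0.24 in that culture and -0.06 in control replicate 3. Within the 5 µM group the largest deviation of a member was 0.20, for OAS2 in replicate 2. The part of library scaling in these deviations was not tested, and in bulk RNA a smaller number of expressing cells and less RNA per cell cannot be told apart.

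**Figure D3:**
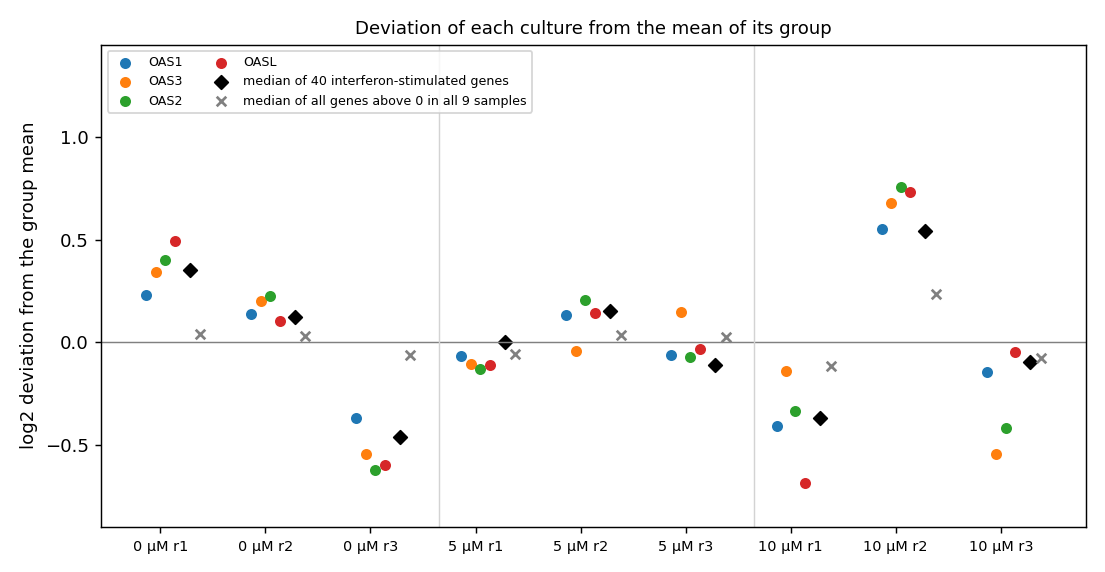
Log2 deviation of each culture from the mean of its group for the 4 OAS genes (coloured points), the median of 40 interferon-stimulated genes (diamonds) and the median of all genes above 0 in all 9 samples (crosses). The OAS points of control replicate 3 lie between -0.63 and -0.37 and those of 10 µM replicate 2 between 0.55 and 0.76.

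Ratios between members within a culture, which do not depend on the scaling of the library, were compared to see whether the family kept its proportions. OAS2 and OASL were about level in the control, at log2 ratios of -0.02, 0.19 and 0.04. At 5 µM the ratio was 0.93, 1.01 and 0.91, so OAS2 measured between 1.88 and 2.01 times OASL. At 10 µM it was 1.03, 0.70 and 0.30, a wide spread that lay wholly above the control and overlapped 5 µM.

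OAS3 against OASL also had a higher log2 ratio at 5 µM (1.84 ± 0.19) than in the control (1.21 ± 0.13, SD, n = 3) without overlap. OAS1 against OAS2 had a lower one, 2.27 ± 0.23 in the control against 1.64 ± 0.07 at 5 µM and 1.59 ± 0.25 at 10 µM, with both treated groups wholly below the control. OAS1 supplied 53.6% ± 3.2 of the family sum in the control and 47.9% ± 1.8 at 5 µM, while the share of OAS2 went from 11.2% ± 1.1 to 15.4% ± 1.1 and that of OASL from 10.7% ± 1.3 to 7.99% ± 0.25. Of 18 comparisons of a ratio (6 pairs in 3 comparisons), 8 had groups that did not overlap. The pairs share members and the comparisons share groups, so the 18 are not independent of each other. The share of ratios between other genes without overlap is not given, so the count of 8 has no background and does not show a change particular to this family. Each of those 8 had an exact permutation p of 0.1, the smallest possible, and 0.225 after Benjamini-Hochberg adjustment over the 18, so none passed the threshold.

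**Figure D4:**
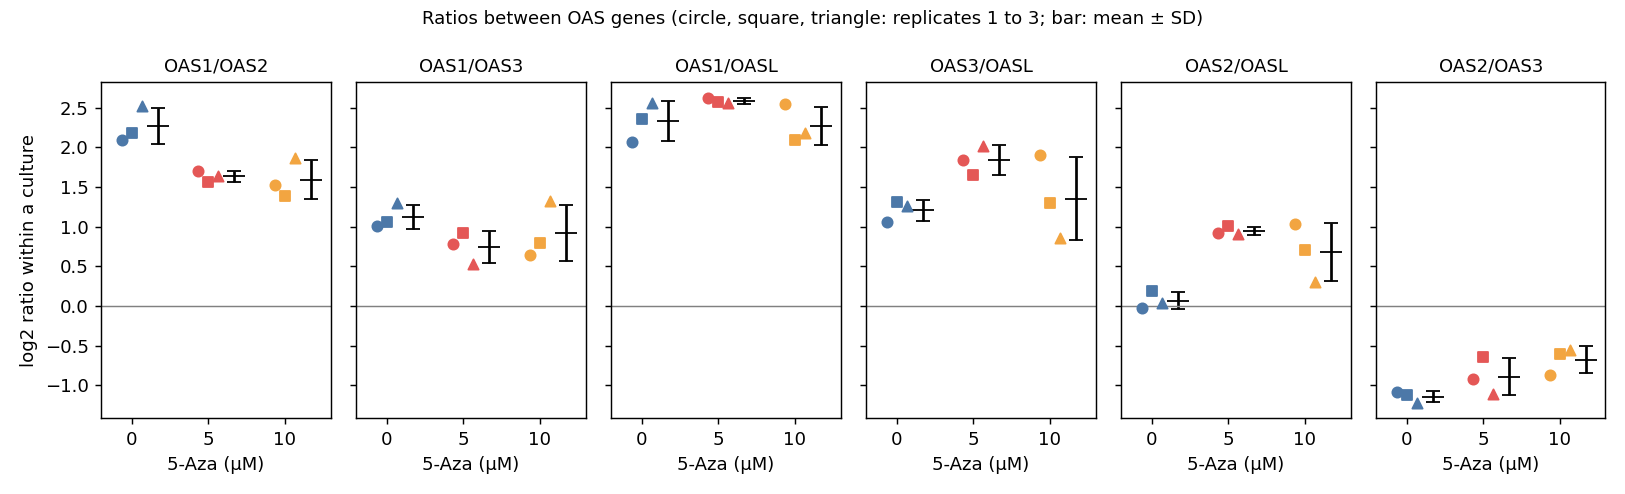
Log2 ratio of FPKM between 2 OAS genes within each culture, for all 6 pairs, against the 5-Aza concentration, with mean ± SD (n = 3). OAS2/OASL moves from a mean of 0.07 in the control to 0.95 at 5 µM, and OAS1/OAS2 from 2.27 to 1.64.

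Of the genes that act beside the synthetases, neither ABCE1 nor PDE12 passed the call rule in any comparison. ABCE1, a ribosome recycling factor, averaged 346940 ± 42524 FPKM in the control, 220036 ± 36343 FPKM at 5 µM and 202911 ± 57219 FPKM at 10 µM. Its log2 differences from the control, -0.66 (limma adjusted p = 0.0153) and -0.80 (limma adjusted p = 0.0441), passed the p threshold but not the fold limit. PDE12, a phosphodiesterase that degrades oligoadenylates, averaged 64881 ± 6854, 70387 ± 7382 and 54938 ± 16767 FPKM at 0, 5 and 10 µM, with overlapping groups throughout. An unadjusted limma p under 0.05 was reached by ABCE1 in both comparisons with the control.

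Upstream of the family, most interferon genes were low. IFNE, which encodes interferon epsilon, was the exception, with a control mean of 163286 ± 25954 FPKM against 99471 ± 6548 FPKM under 5 µM and 125263 ± 21826 FPKM under 10 µM. Its 5 µM cultures lay wholly below the control, with a log2 difference of -0.70 (limma adjusted p = 0.00657) that passed the p threshold but not the fold limit. IFNG and IFNW1 were listed at 0 in all 9 cultures. IFNB1, which encodes interferon beta, was listed at 0 in all 3 control cultures, at 2529, 3194 and 3783 FPKM at 5 µM, and at 0, 2424 and 11443 FPKM at 10 µM. IL28B, which encodes interferon lambda 3, was listed at 0 in all 3 control cultures and at 3935 to 6214 FPKM at 5 µM, and it can share reads with its close copy IL28A. Both were called at 5 µM, but their 5 µM values rest on an estimated 5.37 to 8.6 fragments for IFNB1 and 9.29 to 16.5 for IL28B. IL28B was called at 10 µM against 0 µM too, where its 10 µM values rest on an estimated 2.07 to 7.23 fragments. The other 6 of the 8 interferon genes tested at 5 µM, IFNE among them, were not called.

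In the signalling step between interferons and OAS genes, 9 genes were tested at 5 µM. Of these, 5 had a positive and 4 a negative log2 difference, with 3 called higher and 0 lower. STAT2 and IL28RA were among the 3. STAT2 went from 214880 ± 12154 to 507785 ± 40607 FPKM (2.36-fold, limma adjusted p = 0.000267), and IL28RA, a subunit of the interferon lambda receptor, rose 2.31-fold (limma adjusted p = 0.00630). IRF9, which also belongs to ISGF3, differed by 1.21-fold and was not called (limma adjusted p = 0.0755). Of 8 sensors and effectors of double-stranded RNA, IFIH1 (the sensor MDA5) rose 2.30-fold and ZBP1 rose 4.37-fold, the latter from an estimated 20 to 37.6 fragments in the control. The other 6, which include DDX58 (the sensor RIG-I, 1.90-fold, limma adjusted p = 0.0138) and EIF2AK2 (the kinase PKR, 1.46-fold, limma adjusted p = 0.0297), stayed inside the fold limit. None of the 8 was called in the other comparisons, where 4 of 8 (10 µM against 5 µM) and 1 of 8 (10 µM against 0 µM) had an unadjusted limma p under 0.05.

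Set among 40 other interferon-stimulated genes, the OAS members were spread through the list at 5 µM. In that list 34 of 40 genes were called higher and 0 lower, with a median log2 difference of 1.55 against 0.14 for all tested genes. Larger log2 differences than that of OAS2 were found for 8 of the 40, than that of OAS3 for 17, than that of OAS1 for 26 and than that of OASL for 34. HERC5, an ISG15 ligase, had the largest at 4.30, followed by IFITM1, a membrane protein that blocks virus entry, at 3.08.

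At 10 µM against 5 µM, MX2, an antiviral GTPase, was the single gene of the 40 called lower (-1.06, limma adjusted p = 0.0357), and the list median was -0.73. OAS3, OAS1 and OAS2 had lower values than most of that list, with 2, 3 and 4 of the 40 genes below them. Without 10 µM replicate 2, 18 of the 40 were called lower, in the fit where 1873 rather than 969 of all genes were, and leaving out any other culture of these groups gave 0 calls. At 10 µM against 0 µM, 8 of the 40 were called higher with a list median of 0.83, and each OAS member had a smaller log2 difference than that median, from 0.14 to 0.81. That count fell to 1 without control replicate 2, to 2 without control replicate 3, 10 µM replicate 1 or 10 µM replicate 3, and was 6 without control replicate 1 or 10 µM replicate 2. It was 13 with all 9 samples in one fit and 19 with median-of-ratios scaling, where 1174 and 1125 rather than 771 of all genes were called higher, and 768 and 284 rather than 644 lower. XAF1 (2.15) and HERC5 (2.91), for example, were called at 10 µM against 0 µM, where 4.07% of all tested genes were called higher. Not called were 32 of the 40 genes and all 4 OAS members.

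**Figure D5:**
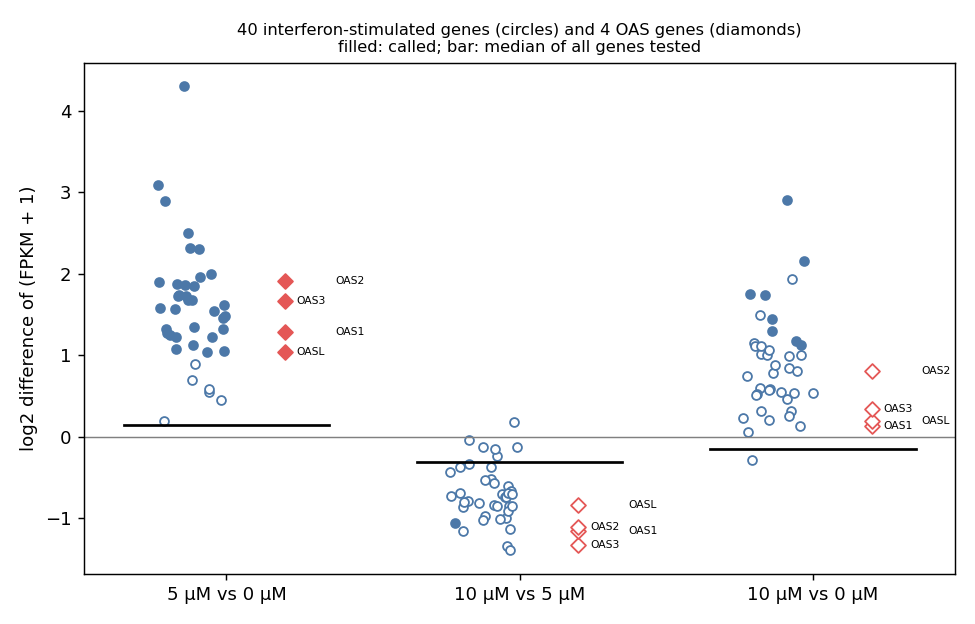
Log2 difference of (FPKM + 1) for 40 interferon-stimulated genes (circles) and the 4 OAS genes (diamonds) in the 3 comparisons, filled where called, with the median of all tested genes as a bar. At 5 µM against 0 µM, 34 circles and 4 diamonds are filled; at 10 µM against 0 µM the diamonds lie between 0.14 and 0.81.

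Of the promoter windows of these 40 genes, 33 had at least 1 entry in the table, and 26 of those 33 (78.8%) held GAAANNGAAA or GAAANGAAA, against 6.74% of all 27305 genes with a window. OAS1 and OAS3 both held one. The called and uncalled genes were not compared by their windows.

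Genes whose levels followed each member most closely over the 9 cultures were found by Pearson's r of log2(FPKM + 1), among 15270 genes above 0 in all of them. OAS2 was closest to HERC6 (0.995), DDX60 (0.995) and IFIT1 (0.992), which are on the interferon-stimulated list. OAS1 was closest to WBP2 (0.992), ITM2C (0.990) and LAP3 (0.989), OAS3 to NCAPG2 (0.994), MAPK7 (0.985) and TAP2 (0.983), and OASL to POC1A (0.983), PML (0.979) and IRF9 (0.978). The 9 points share the 3 groups and the library scaling, so these values only order the genes. The genes closest to OAS1, OAS3 and OASL are not among the 40 on the interferon-stimulated list, but that list does not hold every gene that responds to interferon. The sizes of the differences were not alike: WBP2 differed by 0.80 and MAPK7 by 0.35 on the log2 scale at 5 µM against 0 µM, less than OAS1 and OAS3.

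The genes beside OAS1, OAS3 and OAS2 were examined as well. Within 250 kb of the OAS1, OAS3 and OAS2 cluster, 4 annotated genes are in the files, and 3 of them rose at 5 µM. RASAL1, a Ras GTPase-activating protein gene 87096 bases away, went from 1718 ± 420 to 12424 ± 1242 FPKM (log2 difference 2.88, limma adjusted p = 0.000803). IQCD rose by 1.18 (limma adjusted p = 0.00237), and DTX1 rose from 0, 0 and 116 FPKM in the control to between 1156 and 1649 FPKM at 5 µM. RASAL1 was also called higher at 10 µM against 0 µM (2.60, limma adjusted p = 0.00954), where the OAS members were not.

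Marker genes of colon epithelium, leukocytes, and fibroblasts and endothelium were examined in the cultures. All 9 colon epithelial markers, among them EPCAM, KRT8 and VIL1, were above 0 in each group. Their summed level, most of it KRT8 and KRT18, was 82700000 to 99100000 FPKM in the control, 34700000 to 39300000 at 5 µM and 27300000 to 47900000 at 10 µM. At 5 µM against the control, 8 of the 9 had a negative log2 difference and 1 a positive one. By the call rule KRT8 and KRT18 were lower and CDX1 was higher, where 2.17% of all tested genes were called lower and 14.1% higher. At 10 µM against 0 µM all 9 differences were negative, and KRT20 and CDX2 were called lower, as were 3.4% of all tested genes. The leukocyte genes PTPRC and CD3E reached at most 983 and 912 FPKM in any culture, and the summed level of the 6 leukocyte markers, most of it LYZ, was 8570000 to 8820000 FPKM in the control, 3910000 to 4780000 at 5 µM and 4530000 to 6540000 at 10 µM. Of these 6, ITGAM rose from 755 ± 512 to 10214 ± 1964 FPKM at 5 µM (limma adjusted p = 0.00194), and CD14 lay between 35247 and 50081 FPKM in all 9 cultures. CD3E rose from 0 in all 3 control cultures to between 732 and 912 FPKM at 5 µM (limma adjusted p = 0.000793). A log2 difference from 0 is inflated at such low values, and the fragments behind them were not estimated. ITGAM was also called higher at 10 µM against 0 µM (limma adjusted p = 0.0451), and 0 of 6 were called at 10 µM against 5 µM, where ITGAM and CD3E had an unadjusted limma p under 0.05. The 6 fibroblast and endothelial markers summed to 24500 to 35200, 90000 to 96300 and 46700 to 54800 FPKM at 0, 5 and 10 µM, and 5 of them rose at 5 µM, with DCN at 0 in that group. At 5 µM against the control, the epithelial sum was thus lower and the fibroblast and endothelial sum higher. The leukocyte sum was lower with LYZ, whereas 4 of the 6 leukocyte genes had a positive log2 difference and 2 a negative one. The part of these markers in the OAS result was not tested.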

How the data were processed

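RNA from 9 HT-29 cultures (3 per 5-Aza concentration) was measured by paired-end RNA-Seq. The authors made libraries with a TruSeq RNA kit, trimmed reads (FASTX-Toolkit), mapped them to hg19 (TopHat v2.0.1) and derived gene FPKM with Cufflinks 1.3.0. These deposited FPKM values were used as they stand. Their library term and annotation version are not given in the sources used here, and their sums per library (3692000000 to 5908000000) show that FPKM here is not scaled to a common total. Entries of repeated symbols were summed.

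Groups came from the sample labels. Values were transformed as log2(FPKM + 1), where adding 1 is little on this FPKM scale, so that log2 differences of genes with values of 0 are inflated, and genes reaching 10 FPKM in either group were tested in limma 3.58.1 (R 4.3.3, moderated by eBayes with trend on mean intensity) on the 6 samples of a comparison, without a replicate block. A call needed an adjusted p (Benjamini-Hochberg) of 0.05 or less plus a log2 difference beyond 1 either way. Exact permutation tests used scipy 1.17.1, tables pandas 2.3.3 and numpy 2.4.6. The steps were tested on simulated data. Fragments were estimated from the steps of low FPKM values, since all 46 values above 0 at 12 microRNA genes of equal annotated length were whole multiples of 1 step per library within 0.01. Precision from fragments covers counting error only.

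Genes named are the members, the listed pathway partners, interferon, receptor, sensor, interferon-stimulated and marker genes, annotated genes within 250 kb, and the 3 genes most correlated with each member. Some genes of these lists are not reported here. Members and lists were chosen with earlier results of these data known. Alternatives were other pseudocounts, filters, scaling, fits and entries of repeated symbols, a replicate block, limma's treat and each replicate left out.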

Additional observations from a re-analysis of the deposited data

How the results depend on the processing

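The number of calls at 5 µM against 0 µM held under most settings. Of the OAS members, 3 or 4 of 4 were called there under 9 of 10 other settings, and 0 with treat against a fold change of 2, which also left 6 of the 34 interferon-stimulated genes. At 10 µM against 5 µM, 0 OAS members became 2 with a pseudocount of 1000, 2 with at least 10 FPKM in all 3 replicates of a group, 2 with all 9 samples in one fit and 1 with median-of-ratios scaling, and leaving out 1 culture gave 0 to 4. The 1 interferon-stimulated gene there became 2 with a pseudocount of 1000 and 0 with the replicate block, median-of-ratios scaling or treat, and 0 to 18 on leaving out 1 culture. At 10 µM against 0 µM, OAS members stayed at 0 under all settings, while the 8 interferon-stimulated genes became 5 without a filter on low values, 13 with all 9 samples in one fit, 19 with median-of-ratios scaling, 0 with treat, and 1 to 6 on leaving out 1 culture. In this comparison the sign of the OAS difference changed on leaving out control replicate 3 (OAS1 -0.05, OASL -0.10) or 10 µM replicate 2 (OAS1 -0.14, OASL -0.17, OAS3 -0.00027). The lowest and highest values on leaving out 1 culture were -0.14 and 0.34 for OAS1, -0.00027 and 0.61 for OAS3 and -0.17 and 0.54 for OASL. Apart from culture omissions, which also reduce the number of samples, the cause was not tested. Median-of-ratios scaling moved the median log2 difference of all tested genes by 0.20 at 10 µM against 5 µM and by 0.23 at 10 µM against 0 µM, and the OAS differences then were -1.12 to -0.64 and 0.38 to 1.05. The replicate numbers gave no pairing: deviations of same-numbered samples correlated between -0.074 and 0.086, and those of different numbers between -0.16 and 0.10. With the replicate block, 4, 0 and 0 of 4 OAS members were called in the 3 comparisons, as without it. Of all tested genes, 407 rather than 969 were then called lower at 10 µM against 5 µM, and 11 rather than 26 higher. Over all genes, calls higher and lower were 2818 and 436 at 5 µM against 0 µM but 1463 and 70 with treat and 4263 and 3553 without the fold limit. At 10 µM against 5 µM they were 7 and 374 with treat, 64 and 1175 without the fold limit, 55 and 829 with median-of-ratios scaling, and 12 to 64 and 176 to 1873 on leaving out 1 culture. At 10 µM against 0 µM they were 771 and 644, but 145 and 16 with treat, 1020 and 1837 without the fold limit, 1174 and 768 with all 9 samples in one fit, 1125 and 284 with median-of-ratios scaling, and 337 to 819 and 165 to 1500 on leaving out 1 culture. The number of ratios between OAS members whose groups did not overlap stayed at 8 of 18 under 3 other settings. It was 8 to 11 on leaving out 1 culture, where fewer samples make a lack of overlap easier to reach.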
